A study of Rattus norvegicus with 8 samples.

Results

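The WNT, BMP, TGF-beta and Notch families were read from hippocampal RNA of 8 male Wistar rats on 1-colour Agilent arrays, 1 array per rat. The members were the array probes whose RefSeq accession belongs to a gene with a symbol starting Wnt or Bmp and a digit, or starting Fzd, Sfrp, Bmpr, Acvr, Smad, Tgfb or Notch, with Bmp4 left out. This gave 61 probes of 52 genes, out of 12206 genes that could be named on the array. No member differed between the diets at an adjusted p under 0.05. The lowest adjusted p belonged to Wnt10a, whose 2 probes both read about 1.5-fold higher in the supplemented rats. The widest spread belonged to Wnt6, which varied far more among single control hippocampi than between the diets. Its probe was well above background on only 2 of the 4 control arrays.

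Control rats (n = 4) were kept on a standard feed, and CCH rats (n = 4) on that feed plus 0.1% of powdered coral calcium hydride, a coral-derived calcium product loaded with hydrogen. The diets began at an age of 6 weeks and the hippocampus was taken at 8 weeks, and neither group carried a transgene, lesion or other agent in the design text. The free-text notes on the arrays conflict with this, because they speak of a Parkinson's disease model with a lesion and of saline or L-DOPA, and groups were therefore taken from titles and treatment labels. All control arrays sat on slide 1 and all CCH arrays on slide 2, so in each difference below the slide cannot be told apart from the diet.

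WNT ligands are secreted lipid-modified proteins that bind Frizzled receptors, and secreted Frizzled-related proteins bind the ligands outside the cell. BMP, activin and TGF-beta ligands assemble type I and type II receptor kinases, which phosphorylate SMAD proteins that move to the nucleus. Notch receptors are cut after contact with a ligand on a neighbouring cell, and their intracellular part then acts on transcription with RBPJ. In the adult hippocampus these pathways are known for their part in the stem cell niche of the dentate gyrus, in synapses and in vessels, and several of their ligands are also made by the meninges and choroid plexus that cover or adjoin the tissue.

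Wnt10a carries the lowest adjusted p, Wnt6 is its direct neighbour on chromosome 9 with 0 annotated genes between them, Wnt5a is the other WNT ligand that read higher at an unadjusted p under 0.05, and Bmp6 had the largest control SD among the BMP ligands that were well above background on every array. Their 250 bases before the annotated start, from RefSeq (GRCr8), are shown 5′ to 3′ on the gene's strand for that reason. Wnt10a lies at chr9:83798344-83798593 on the plus strand, Wnt6 at chr9:83778302-83778551 on the plus strand, Wnt5a at chr16:3703415-3703664 on the plus strand and Bmp6 at chr17:26675262-26675511 on the minus strand. Capitals mark the GC-rich SMAD motif GGCGCC.
Wnt10a: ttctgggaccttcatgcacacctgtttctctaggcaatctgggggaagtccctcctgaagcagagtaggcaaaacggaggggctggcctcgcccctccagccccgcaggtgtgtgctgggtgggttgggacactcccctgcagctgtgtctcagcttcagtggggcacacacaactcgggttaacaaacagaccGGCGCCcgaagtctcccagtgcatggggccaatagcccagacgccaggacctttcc
Wnt6: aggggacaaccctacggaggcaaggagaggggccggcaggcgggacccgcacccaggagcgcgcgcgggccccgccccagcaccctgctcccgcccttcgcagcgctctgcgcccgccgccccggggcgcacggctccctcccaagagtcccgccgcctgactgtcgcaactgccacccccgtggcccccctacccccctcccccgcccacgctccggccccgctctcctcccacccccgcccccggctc
Wnt5a: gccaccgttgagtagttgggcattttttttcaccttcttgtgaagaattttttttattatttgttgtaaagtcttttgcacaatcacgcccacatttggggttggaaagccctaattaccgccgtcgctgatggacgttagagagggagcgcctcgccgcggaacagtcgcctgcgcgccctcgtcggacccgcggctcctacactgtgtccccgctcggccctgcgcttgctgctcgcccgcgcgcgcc
Bmp6: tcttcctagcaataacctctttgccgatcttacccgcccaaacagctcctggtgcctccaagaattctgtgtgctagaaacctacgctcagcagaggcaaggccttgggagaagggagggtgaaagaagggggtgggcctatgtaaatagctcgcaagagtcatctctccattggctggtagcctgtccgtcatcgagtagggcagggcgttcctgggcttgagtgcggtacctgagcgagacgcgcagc
The neighbours Wnt10a and Wnt6 differed in base composition, at 61.2% and 79.6% G or C. Wnt5a had 57.2% and Bmp6 56.4%. The 4 short motifs below were searched on both strands in windows of the same length, in 44 promoters of 42 member genes and in 33469 promoters of the whole table. GGCGCC was in 12 member promoters (27.3%) and in 8.69% of all promoters, and in Wnt10a it lies 56 bases before the start. The member promoters also had more G and C, with a median of 67.4% against 51.2% over all promoters, and what part of the motif count goes with that was not tested. The RBPJ motif GTGGGAA was in 4 member promoters (Bmp15, Fzd9, Sfrp5 and Wnt9a) and in 5.27% of all. The TCF/LEF motif CTTTGAT was in 1, that of Bmpr1a, and in 3.15% of all, while the SMAD palindrome GTCTAGAC was in 0 and in 0.173% of all. None of the 4 motifs was found in the Wnt5a, Wnt6 or Bmp6 window, which says only that these letters are not there.

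Each value below is a log2 signal relative to the 75th percentile of its array, so that 0 is the signal of that percentile and 1 unit is a doubling. Per array, 33091 to 34643 of 43379 spots were well above background and 0 were saturated. Of the 61 member probes, 52 (44 genes) could be told from background on 4 or more arrays and were tested, and 49 were well above it on all 8. CCH replicate 1 stood apart on the whole array: it was the highest or lowest CCH array for 75.7% of all tested probes, and for 59.6% of the member probes. Control replicate 1 was the highest control for 26 of the 52 tested member probes (50.0%) and for 20.6% of all tested probes, and it was the highest or lowest control for 65.4% of member probes and 57.9% of all. Of the hippocampal excitatory neuron markers, all 14 with a probe were well above background and 11 read higher in CCH, 1 of them at an unadjusted p under 0.05.

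Across all tested probes, 0.174% (55 of 31617) passed an adjusted p of 0.05 (limma, Benjamini-Hochberg over all tested probes), and 0 of 52 member probes did. At an unadjusted p under 0.05, 5 member probes (9.62%) read higher in CCH against 8.79% of all probes, and 6 (11.5%) read lower against 6.59%. Of the 12474 tested probes named through RefSeq, to which the members belong, 928 read higher and 867 lower at that p. The groups did not overlap for 3 member probes that read higher (5.77%, against 6.59% of all) and for 3 that read lower (5.77%, against 4.69%). Of these shares, that of probes lower at an unadjusted p was more than 1.5 times its background, and it counts a probe of Acvr2a that another probe of the gene opposes. The median difference over the member probes, CCH minus control, was -0.09, with 21 higher and 31 lower, beside a median of 0.03 over all tested probes. That median was 0.02 without control replicate 1.

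**Figure D1:**
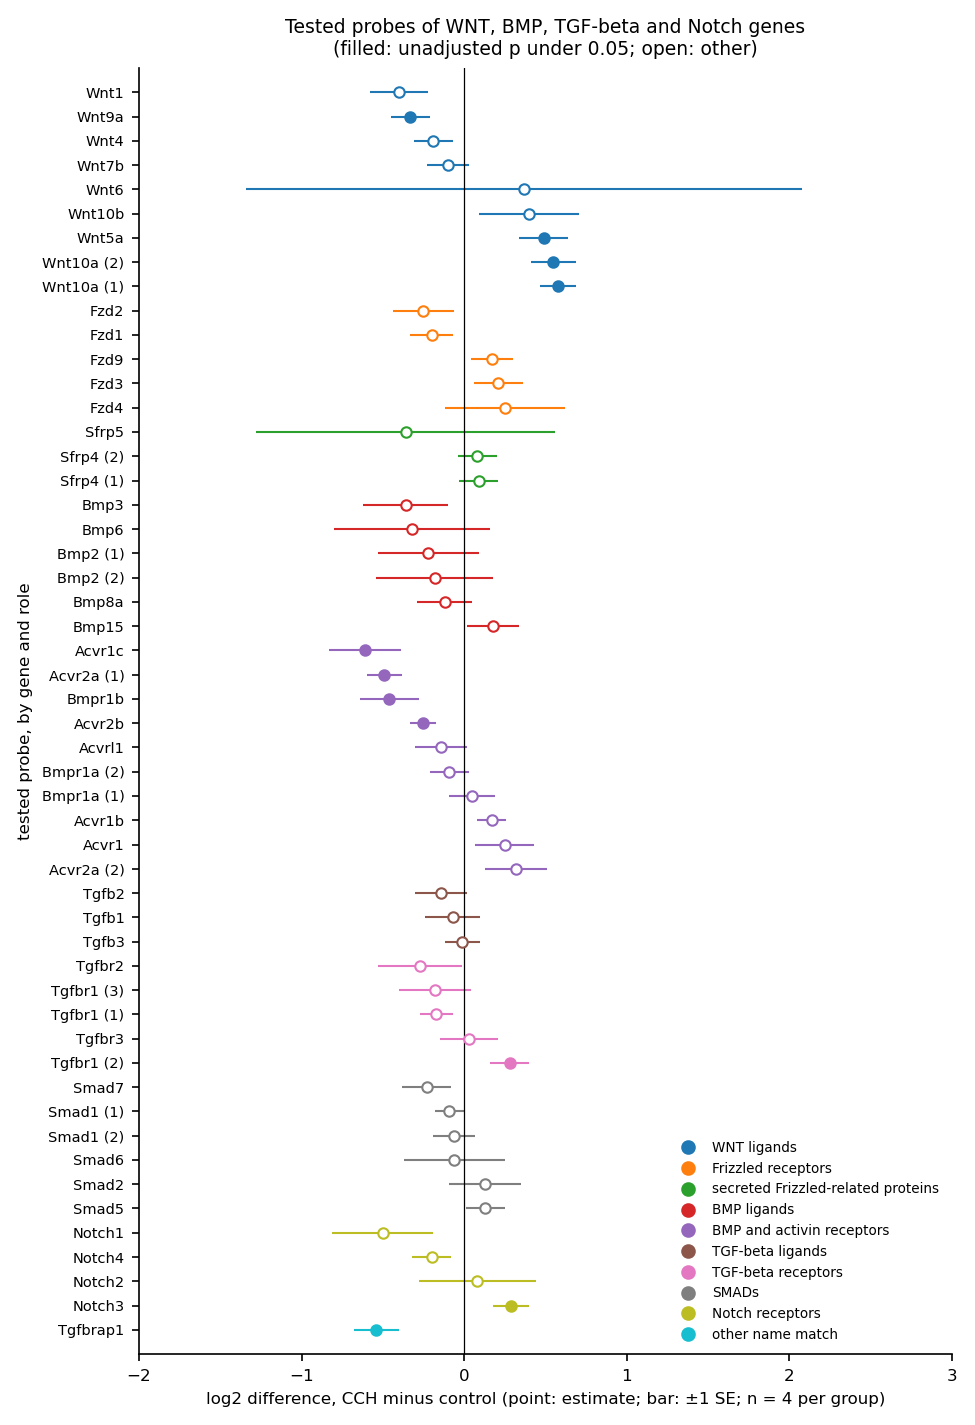
Log2 difference between the CCH and control means (x axis) for each of the 52 tested member probes (y axis), coloured by role; points are estimates, bars are 1 SE, n = 4 rats per group, and probes of one gene are numbered by mean signal. Filled points, at an unadjusted p under 0.05, run from -0.61 (Acvr1c) to 0.58 (Wnt10a), and the widest bar is that of Wnt6.

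Among the WNT ligands, Wnt10a, which signals through beta-catenin in skin, tooth and fat, read higher in CCH on both of its probes. On probe A_44_P563447 the control arrays read -0.97, -0.59, -0.78 and -0.82, and the CCH arrays read -0.25, -0.31, -0.08 and -0.18. Every CCH array lay above every control array. The difference was 0.58 ± 0.11 (SE), or 1.5-fold, at an unadjusted p of 0.000465 and an adjusted p of 0.0617 (limma). On the dimmer probe A_44_P342788 the controls read -4.40, -4.06, -3.90 and -4.14, and the CCH arrays -3.57, -3.81, -3.58 and -3.36. Again the groups did not overlap, and the difference was 0.55 ± 0.14 with an adjusted p of 0.117. Over the other settings the first probe moved between 0.49 and 0.65 with adjusted p between 0.0234 and 0.369. It passed with normexp background correction (adjusted p = 0.0472), array weights (0.0234), trend and robust variance (0.0459) and without CCH replicate 1 (0.0478). In those settings, in that order, 246, 1295, 215 and 708 probes of the whole array passed, against 55 in the reported fit. The second probe was 0.12 with normexp and never passed. Normexp as run here, and in the normexp values below, added a fixed 50 to every spot, which shrinks the differences of dim probes.

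Wnt5a, a ligand of the beta-catenin-independent branch known in dendrite and synapse growth, read -4.90, -5.38, -5.60 and -5.54 in controls and -4.87, -4.85, -4.77 and -4.96 in CCH. The CCH arrays were tightly grouped, and control replicate 1 lay within their range. The difference of 0.49 ± 0.15 had an adjusted p of 0.187, and with normexp it was -0.07. Wnt9a went the other way, at -5.41, -5.23, -5.67 and -5.31 in controls and -5.78, -5.60, -5.69 and -5.85 in CCH, with groups that overlap and a difference of -0.33 ± 0.12 (adjusted p = 0.236).

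The remaining WNT ligands all had unadjusted p above 0.05. Wnt1, a classical beta-catenin ligand, differed by -0.40 ± 0.18 (adjusted p = 0.347), and its lowest value was CCH replicate 1 at -6.59. Wnt4 differed by -0.19 ± 0.12 and Wnt7b, which acts in dendrite and vessel growth, by -0.10 ± 0.13. Wnt10b, well above background on 2 control and 3 CCH arrays, differed by 0.40 ± 0.31, and by -0.16 with normexp. Wnt3, a ligand of hippocampal astrocytes, was well above background on 1 control and 1 CCH array and was not tested. Wnt8a, Wnt8b and Wnt9b were not well above background on any array. Wnt7a was not analysed here.

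**Figure D2:**
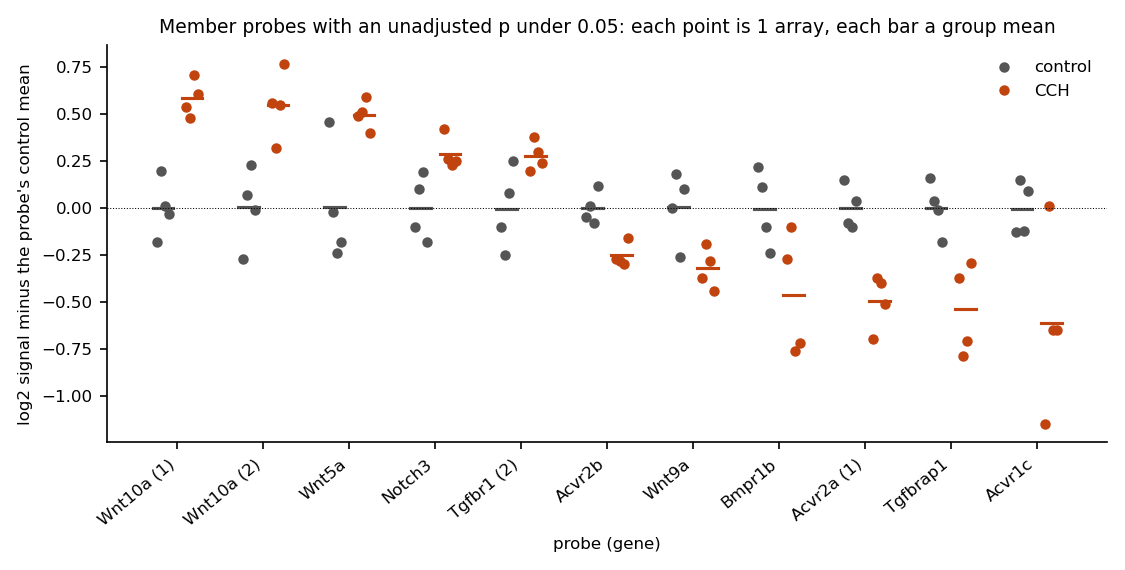
Log2 signal of each array minus the control mean of the probe (y axis) for the 11 member probes (x axis) with an unadjusted p under 0.05; grey points are control rats, orange points CCH rats, n = 4 each, and bars are group means. The groups are apart for both Wnt10a probes, Notch3, Acvr2b, Acvr2a probe 1 and Tgfbrap1, and overlap for the other 5.

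Wnt6, a ligand known from epithelia and mesenchyme, had the widest spread of any member. The controls read -1.36, -8.58, -2.45 and -8.75, and the CCH arrays -4.58, -3.78, -5.27 and -6.02. Control replicates 1 and 3 lay above all CCH arrays and control replicates 2 and 4, where the probe was not well above background, lay below all of them. The control SD was 3.93, against a median of 0.16 over all tested probes. This SD and the difference that follows rest in part on the background values of control replicates 2 and 4. The difference between diets was 0.37 ± 1.71 (adjusted p = 0.945), and it ran from -0.78 to 1.68 when 1 array was left out. Wnt10a, its neighbour in the genome, did not show this split, since its control SD was 0.16 on the first probe and control replicate 1 was its lowest array.

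The same control rats were high for several BMP and TGF-beta members. Bmp6, a BMP ligand that also sets iron balance through liver hepcidin, read -0.11, -2.21, -0.85 and -2.12 in controls and -1.09, -1.44, -1.99 and -2.06 in CCH, and its control SD of 1.02 exceeded that of 97.6% of tested probes. Bmp5, a close relative of Bmp6, read -5.08, -8.89, -5.74 and -8.97 in controls and -7.55, -6.57, -7.75 and -7.86 in CCH. It was well above background on control replicates 1 and 3 and on CCH replicate 2, and was not tested. Bmp2 gave the same order on its 2 probes, with controls at -2.20, -3.27, -2.38 and -3.45 and CCH arrays at -2.84, -2.72, -3.18 and -3.43 on A_44_P1013851. Smad6, an inhibitory SMAD, read -2.96, -4.16, -3.39 and -4.01 in controls and -3.16, -3.54, -3.83 and -4.21 in CCH.

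In each of these, and in Tgfbr2, Tgfb1 and the endothelial type I receptor Acvrl1, control replicates 1 and 3 were the highest controls. The order was not particular to them. Fzd1, Fzd2, Wnt4, Notch2, Notch4, Smad2, Bmp15, both probes of Smad1 and Bmpr1a, and Tgfbr1 probe A_44_P640828 had it too. Other members, such as Wnt10a and Notch3, did not. The share of all tested probes with this order was not counted. Genes of the meninges and fibroblasts also had control replicates 1 and 3 highest. All 13 with a probe were bright enough to be tested, 4 read higher and 9 lower in CCH, and none was undetected on all arrays. Their mean deviation was 1.89, -1.58, 1.29 and -1.42 in control replicates 1 to 4 and 0.18, 0.45, -0.01 and -0.80 in CCH replicates 1 to 4. Their summed signal, in multiples of the 75th percentile, ranged from 17.4 to 208 in controls and from 27.2 to 81.6 in CCH. The retinoic acid enzyme Aldh1a2, for example, read -0.73, -5.53, -1.62 and -5.61 in controls and -3.46, -2.19, -2.92 and -4.08 in CCH. Control replicates 1 and 3 were also the highest controls by mean deviation in other marker lists. These were choroid plexus (1.9, -0.65, 1.63, 1.08), endothelium and pericytes (0.4, -0.1, 0.25, -0.66), thalamus and habenula (0.25, -0.29, 0.26, -0.08) and neocortex and subiculum (0.02, -0.12, 0.11, -0.43). In the neocortex and subiculum list only Fn1 had that order, at 1.62, -0.12, 1.3 and -0.51 in controls. Its other tested markers, Fezf2, Tle4, Nts and Lamp5, did not. The astrocyte, microglial, oligodendrocyte and hippocampal neuron lists did not have that order. Within the CCH group, Wnt6 and both Bmp2 probes had the order of the meningeal deviations, with replicate 2 highest and replicate 4 lowest. The endothelial and pericyte list had that order too (0.11, 0.21, 0.0 and -0.21 in CCH replicates 1 to 4). In the thalamus and habenula list replicate 2 was also highest and replicate 4 lowest (0.03, 0.31, 0.03 and -0.49). Other members departed from it: Bmp6 and Smad6 were highest in replicate 1, Tgfbr2 and Acvrl1 in replicate 3, and Tgfb1 was lowest in replicate 3. The part of attached tissue in these members was not tested. In whole hippocampus, fewer cells of a type and less RNA per cell cannot be told apart.

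**Figure D3:**
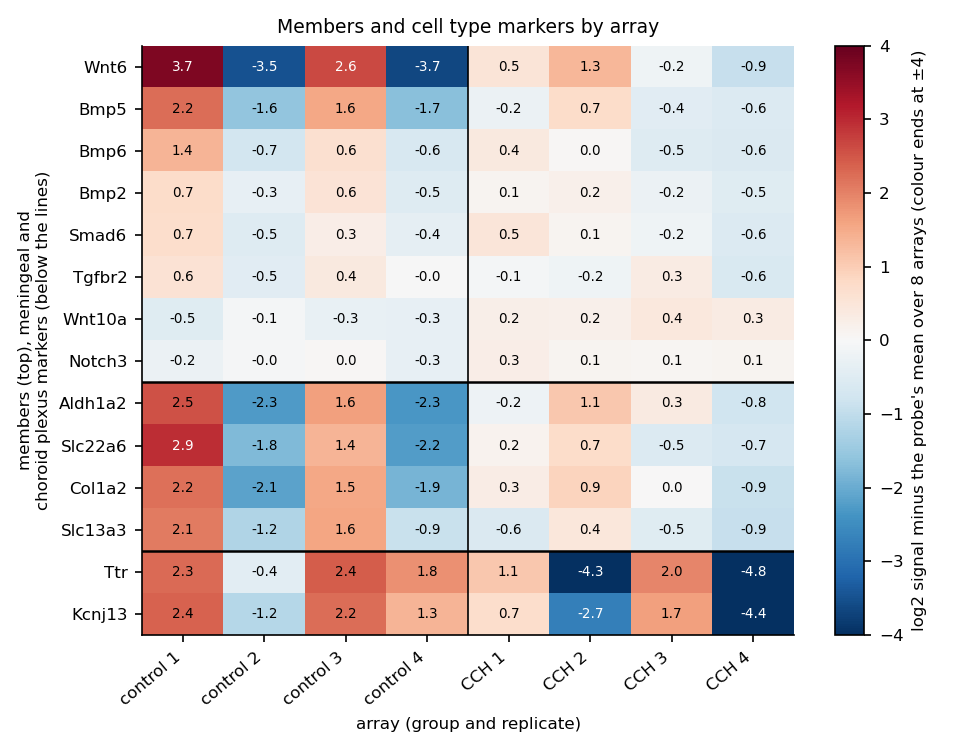
Log2 signal minus the mean of the probe over the 8 arrays (colour, with the value printed) for 8 members (top), 4 meningeal markers (middle) and 2 choroid plexus markers (bottom) across the 4 control and 4 CCH arrays (x axis); the first probe is shown where a gene has several. Wnt6, Bmp5, Bmp6, Bmp2 and Smad6 are high in control replicates 1 and 3 like Aldh1a2, and Wnt10a and Notch3 are not.

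Without control replicates 1 and 3, the difference was 0.52 for Bmp6, 0.32 and 0.30 for the Bmp2 probes and 0.40 for Smad6, against -0.32 for Bmp6, -0.22 and -0.18 for Bmp2 and -0.06 for Smad6 with all arrays. Control replicates 1 and 3 were the highest controls in these 3 genes, so leaving them out could only raise the difference. The direction of the shift is therefore no result of its own. The sign of the diet difference in these 3 genes depended on which control rats were kept. For Wnt6 no measured difference is left in that case, since its probe was not well above background on control replicates 2 and 4. For Wnt10a the same step left 0.50 on the first probe and 0.52 on the second. Of the other BMP ligands, Bmp3 differed by -0.36 ± 0.26 (adjusted p = 0.559), Bmp8a by -0.12 ± 0.17 and Bmp15 by 0.18 ± 0.16, which was -0.23 with normexp. Bmp7 was not analysed here.

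All 5 tested Frizzled receptors had unadjusted p above 0.05. Fzd1 differed by -0.20 ± 0.13 (adjusted p = 0.500) and Fzd2 by -0.25 ± 0.19. Fzd3, which guides axons with the planar polarity proteins, differed by 0.21 ± 0.15, and by -0.04 with normexp. Fzd9, which is expressed in hippocampal neurons, differed by 0.17 ± 0.13. Fzd4, the Norrin receptor of vessels, read -3.40 in CCH replicate 1 and -5.13 to -4.63 in the other CCH arrays, and its difference of 0.25 ± 0.37 was -0.13 without that array. Fzd5 was not well above background on any array.

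Of the secreted Frizzled-related proteins, the Sfrp4 probes differed by 0.09 ± 0.12 and 0.08 ± 0.12. Sfrp5 read -4.47, -7.77, -5.20 and -5.02 in controls and -5.03, -4.42, -6.51 and -7.96 in CCH on its tested probe. The range within each diet exceeded 3 log2 units, and the difference was -0.36 ± 0.92 (adjusted p = 0.891). The lowest value of each diet, control replicate 2 and CCH replicate 4, was not well above background. Both ranges and the difference therefore rest in part on background values. Its other probe was well above background on 1 control array and on 0 CCH arrays, and was not tested. Sfrp1 and Sfrp2 were not analysed here.

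Of the 10 tested probes of BMP and activin receptors, 4 read lower and 0 higher at an unadjusted p under 0.05, where 6.59% of all tested probes read lower and 8.79% higher. Acvr2a, a type II receptor for activins and BMPs, read -1.76, -1.99, -2.01 and -1.87 in controls and -2.61, -2.28, -2.31 and -2.42 in CCH on A_44_P489500. The groups did not overlap, and the difference was -0.49 ± 0.11 (adjusted p = 0.0852). Among the settings tried, Acvr2a passed with array weights alone (-0.42, adjusted p = 0.0335), where 1295 probes of the whole array passed. Its adjusted p ranged from 0.0335 to 0.396 over all settings. Its other probe A_44_P447560 differed by 0.32 ± 0.19 in the opposite direction, and by -0.11 with normexp, so the direction for the gene is not settled.

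Acvr2b, the other activin type II receptor, read -0.82, -0.76, -0.85 and -0.65 in controls and -1.04, -1.05, -1.07 and -0.93 in CCH. Its groups were apart, and the difference was small, -0.25 ± 0.08 (adjusted p = 0.213). Acvr1c (ALK7), a type I receptor for Nodal and activin B, read -2.24, -1.96, -2.23 and -2.02 in controls and -3.26, -2.10, -2.76 and -2.76 in CCH. CCH replicate 2 lay among the controls and replicate 1 was lowest, and the difference of -0.61 ± 0.22 (adjusted p = 0.243) was -0.43 without replicate 1. Bmpr1b, a BMP type I receptor, read -5.00, -5.11, -5.32 and -5.46 in controls and -5.49, -5.32, -5.98 and -5.94 in CCH, with overlap and a difference of -0.46 ± 0.18 (adjusted p = 0.272).

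The other receptors of this group had unadjusted p above 0.05. Acvr1 (ALK2), a BMP type I receptor, differed by 0.25 ± 0.18, with CCH replicate 1 highest at -1.08. Acvr1b (ALK4), the main activin type I receptor, differed by 0.17 ± 0.09 and Acvrl1 by -0.14 ± 0.16. Bmpr1a differed by 0.05 ± 0.14 and -0.09 ± 0.12 on its 2 probes. Bmpr2 was not analysed here.

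The 3 TGF-beta ligands differed by less than their SE. Tgfb1 differed by -0.07 ± 0.17, Tgfb2 by -0.14 ± 0.16 and Tgfb3 by -0.01 ± 0.11, and all 3 unadjusted p exceeded 0.05. Tgfbr1, the TGF-beta type I receptor, had 3 tested probes. One, A_44_P703479, read -4.09, -4.24, -3.91 and -3.74 in controls and -3.79, -3.61, -3.69 and -3.75 in CCH, a difference of 0.28 ± 0.12 (adjusted p = 0.307) that was -0.01 with normexp. The other probes of Tgfbr1 differed by -0.17 ± 0.10 and -0.18 ± 0.22. Tgfbr2, the type II receptor, differed by -0.27 ± 0.26 and the co-receptor Tgfbr3 by 0.03 ± 0.18. Tgfbrap1, matched by its name, codes for a receptor-associated protein that tethers endosomes. It read -4.53, -4.65, -4.70 and -4.87 in controls and -5.06, -5.48, -5.40 and -4.98 in CCH, without overlap, at a difference of -0.54 ± 0.14 (adjusted p = 0.127).

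**Figure D4:**
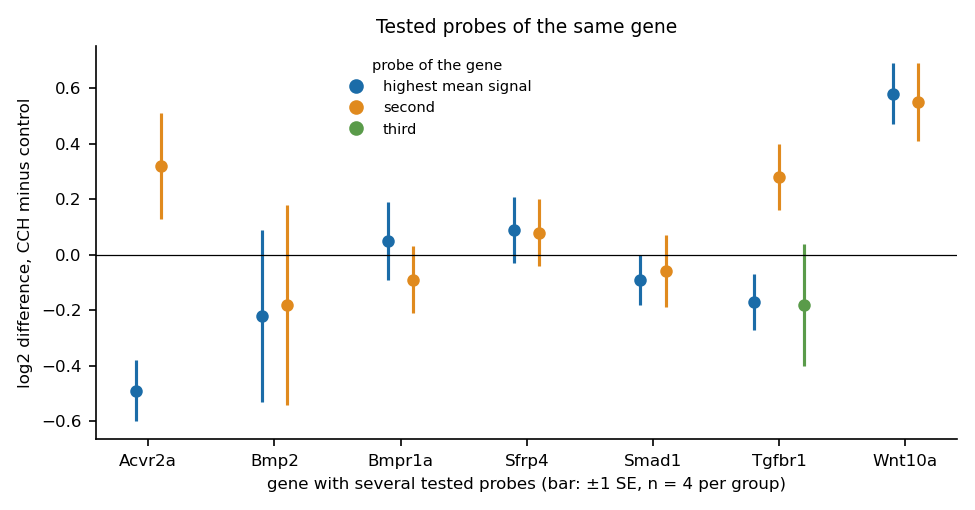
Log2 difference between the CCH and control means (y axis) for each tested probe of the 7 genes with several (x axis), coloured by order of mean signal; bars are 1 SE, n = 4 rats per group. The probes had the same sign in 4 genes, among them Wnt10a (0.58 and 0.55), and opposite signs in 3, Acvr2a, Bmpr1a and Tgfbr1.

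No SMAD passed. Smad7, an inhibitory SMAD, was even across controls at 1.06, 1.04, 0.99 and 1.02, and read 0.43, 1.14, 0.93 and 0.69 in CCH. Its control SD of 0.03 was larger than that of only 1.02% of tested probes, and its difference was -0.23 ± 0.15 (adjusted p = 0.511). The BMP SMADs Smad1 and Smad5 differed by -0.09 ± 0.09 and -0.06 ± 0.13 for the probes of Smad1 and by 0.13 ± 0.12 for Smad5. Smad2, which carries TGF-beta and activin signals, differed by 0.13 ± 0.22, and by -0.10 without CCH replicate 1. The probes of Smad3 and Smad9 were not well above background on any array, and Smad4 was not analysed here.

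Notch3, the Notch receptor known from pericytes and arterial smooth muscle, read 1.72, 1.92, 2.01 and 1.64 in controls and 2.24, 2.08, 2.05 and 2.07 in CCH. The groups did not overlap, by a narrow margin between control replicate 3 and CCH replicate 3, and the difference of 0.29 ± 0.11 had an adjusted p of 0.257. Of the endothelial and pericyte markers, 14 were tested, 7 read higher and 7 lower, their summed signal was 18.5 to 32.1 in controls and 21.0 to 26.2 in CCH, and among its pericyte genes Pdgfrb differed by 0.33 ± 0.15 (adjusted p = 0.333), Rgs5 by -0.05 ± 0.19, Abcc9 by -0.08 ± 0.22, Vtn by -0.33 ± 0.46 and Kcnj8 by 1.16 ± 1.06. For Kcnj8, control replicate 4 read -4.44 against 0.35 to 0.69 in the other controls, and the CCH arrays read 0.18 to 0.80. The part of endothelial cells and pericytes in Notch3 was not tested. Notch1, which keeps neural stem cells undifferentiated, differed by -0.50 ± 0.31 and endothelial Notch4 by -0.20 ± 0.12. Notch2 read -2.40 in CCH replicate 1, and its difference of 0.08 ± 0.36 was -0.30 without that array.

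The other genes of these pathways were taken from 3 lists. Of the 93 tested, 43 read higher and 50 lower, 0 passed with limma, and 11.8% had an unadjusted p under 0.05 (9 higher, 2 lower), below the 15.4% of all tested probes. The counts per list below are read against 8.79% of all probes higher and 6.59% lower at that p. Of the 12474 tested probes named through RefSeq, to which the listed genes belong, 928 read higher and 867 lower. Among 30 of 56 WNT pathway genes, 4 read higher and 1 lower at that p, led by the planar polarity genes Prickle2 (0.30 ± 0.09) and Celsr3 (0.37 ± 0.12), both without overlap. On the lower side of that list, Apc of the beta-catenin destruction complex differed by -0.25 ± 0.11 and the kinase Csnk1a1 by -0.31 ± 0.14. Their adjusted p lay between 0.18 and 0.332.

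Among 33 of 52 BMP and TGF-beta pathway genes, 0 read higher and 1 lower at an unadjusted p under 0.05. Map3k7 (TAK1), a kinase downstream of the receptors, differed by -0.22 ± 0.09, the BMP-family ligand Gdf10 by -0.23 ± 0.10, the receptor-binding protein Fkbp1a by 0.23 ± 0.10 and the corepressor Tgif1 by 0.36 ± 0.20, which was -0.05 with normexp. Among 30 of 50 Notch pathway genes, 5 read higher and 0 lower. Dlk1, a non-canonical ligand, read -5.67, -5.85, -6.38 and -5.10 in controls and -3.24, -4.49, -4.25 and -4.97 in CCH. The groups did not overlap, and the difference was 1.51 ± 0.39, or 2.85-fold (adjusted p = 0.126), but 0.29 with normexp. The ligand Dll1 differed by 0.54 ± 0.16 (adjusted p = 0.175). It passed with array weights (adjusted p = 0.044, range over settings 0.044 to 0.612), where 1295 probes of the whole array passed. On the lower side, the target gene Heyl differed by -0.23 ± 0.12 and the contact protein Cntn1 by -0.32 ± 0.18.

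**Figure D5:**
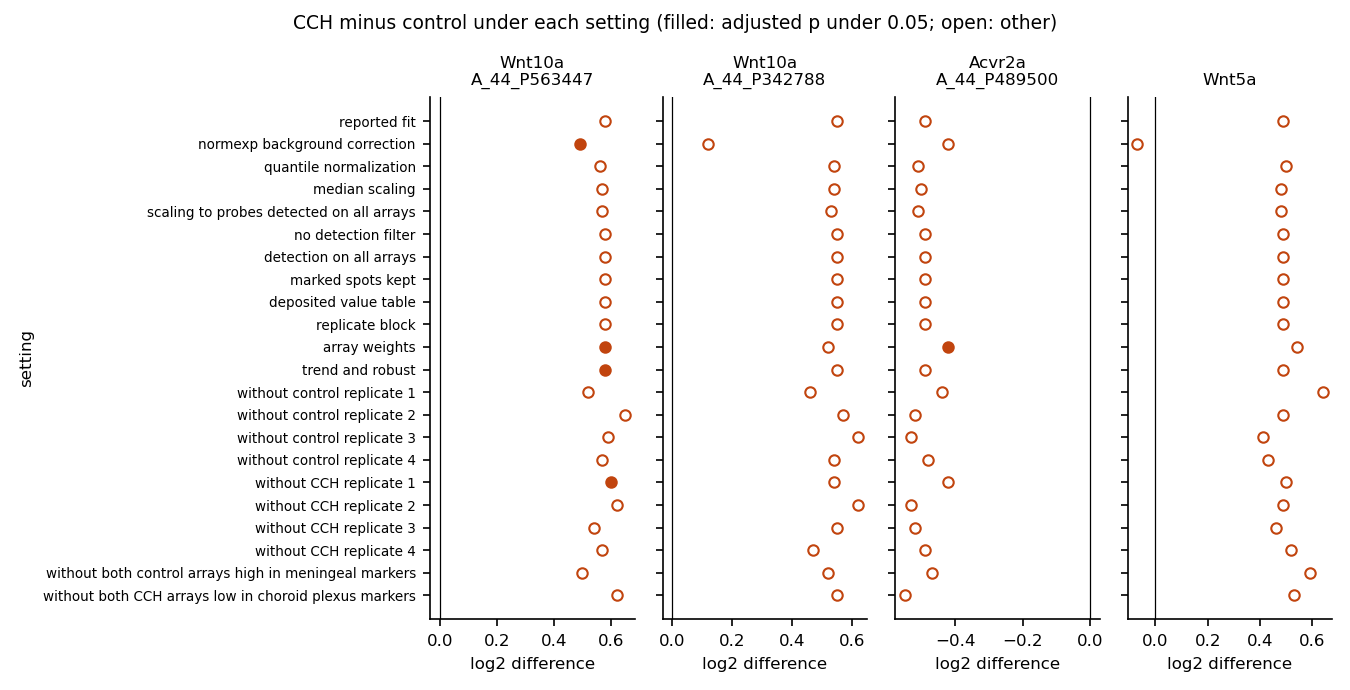
Log2 difference between the CCH and control means (x axes) of both Wnt10a probes, Acvr2a probe A_44_P489500 and Wnt5a under the reported fit and each alternative (y axis); filled points have an adjusted p under 0.05. The first Wnt10a probe passed in 4 settings and Acvr2a in 1, and Wnt5a was -0.07 with normexp. In the settings where a shown probe passed, 215 to 1295 probes of the whole array passed, against 55 in the reported fit.

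Oligodendrocyte markers leaned higher in CCH, microglial and choroid plexus markers leaned lower, and astrocyte markers went both ways. Of these markers, 0 passed the adjusted threshold. Of the oligodendrocyte markers, 12 of 13 read higher in CCH, 7 at an unadjusted p under 0.05, against 8.79% of all tested probes. Their summed signal was 283 to 341 in controls and 307 to 407 in CCH. Of the 13 tested astrocyte markers, 4 read higher (2 at that p) and 9 lower (1 at that p). Of the microglial markers, 12 of 16 read lower, 3 at that p, against 6.59% of all tested probes. Their summed signal was 75.2 to 84.3 in controls and 63.7 to 82.0 in CCH. All 13 tested choroid plexus markers read lower, at 51.0 to 302 in controls and 8.97 to 229 in CCH, with CCH replicates 2 and 4 lowest. Their mean deviation was -3.21 and -3.34 in CCH replicates 2 and 4. In CCH replicates 1 and 3 it was 1.16 and 1.43, within the control range of -0.65 to 1.9. No marker of these lists was undetected on all arrays, and the part of these cells in the values of Wnt10a, Acvr2a and the other members was not tested. Without CCH replicates 2 and 4, Wnt10a differed by 0.62 and 0.55 on its probes and Acvr2a probe A_44_P489500 by -0.55.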

How the data were processed

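Hippocampal RNA of 4 control and 4 CCH rats was hybridised to 1-colour Agilent arrays. Per the file headers, the values deposited by the authors are spot intensity on a linear scale, after background subtraction, extracted with Agilent Feature Extraction 9.5 (the submitters' processing notes), with no normalization between arrays. The log2 of this deposited intensity was taken, the 75th percentile of each array was subtracted, outlier-marked spots were left out and spots of a probe were averaged. Probes well above background on at least 4 of 8 arrays, with 3 values per group, were tested with limma 3.58.1 (R 4.3.3, lmFit and eBayes, two-sided) and Benjamini-Hochberg adjustment over all 31617 tested probes, at a threshold of 0.05. The code was tested on simulated data. Genes were named by RefSeq accession through the GRCr8 table, which matched 37.0% of 41012 probes. Levels of different probes were set against each other only to order the probes of the same gene by mean signal. Signals summed within a marker list were compared only between arrays.

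The members, gene lists and marker lists were chosen with earlier results of these data known. Named were members with an unadjusted p under 0.05, the 3 genes of smallest p per role, a fixed set of well-known members, and 2 genes per direction from each list of other pathway genes. Outside this rule, Acvr1b, Bmp5, Fzd4, Fzd5, Smad6, Smad9, Wnt1, Wnt10b, Wnt4, Wnt6, Wnt8a, Wnt8b and Wnt9b were chosen after their values were seen. So were the markers Aldh1a2, Pdgfrb, Rgs5, Abcc9, Vtn, Kcnj8, Fn1, Fezf2, Tle4, Nts and Lamp5. Alternatives changed the background correction (normexp, offset 50, on the median signal, since the files used here hold no mean signal), scaling, filter, outlier marks, value source, variance model, array weights, replicate block and arrays kept; the fits without 2 control or 2 CCH arrays were chosen after seeing the data. Replicate numbers were not taken as pairs. Rats are the replicates, and with 4 per group their number limits the precision.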

Additional observations from a re-analysis of the deposited data

Results flagged for a closer look

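In groups of 4 arrays, a single array lay far from the other 3 in 5 of 128 groups of named probes, where chance alone gives about 1 in 20 groups. CCH replicate 1 was that array for Fzd1 (-0.35, the others 0.09 to 0.15), Smad5 (-3.33, the others -3.82 to -3.76), Wnt1 (-6.59, the others -5.92 to -5.83) and Wnt4 (2.17, the others 2.53 to 2.59). Control replicate 4 was that array for Notch4 (-0.28, the others 0.01 to 0.04).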

How the results depend on the processing

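Of 64 named probes, 37 kept the sign of their difference under every alternative and 27 changed it under at least 1. With normexp, 1 member probe and gene and 246 probes in all passed, the median over all tested probes was -0.07 instead of 0.03, and differences turned to -0.11 (Acvr2a A_44_P447560), -0.23 (Bmp15), -0.04 (Fzd3), -0.05 (Fzd4), -0.05 (Notch2), -0.07 (Smad5), 0.01 (Tgfb3), -0.01 (Tgfbr1 A_44_P703479), -0.15 (Tgfbr3), -0.16 (Wnt10b), -0.07 (Wnt5a), -0.73 (Wnt6), -0.05 and -0.11 (Sfrp4) and -0.05 (Tgif1). Normexp added the fixed 50 before the 75th percentile of each array was subtracted. On the deposited intensity that percentile was 563 to 700 in controls and 642 to 882 in CCH. The part of the offset and the percentile in the changes with normexp was not tested. Without a detection filter 29 probes passed, and 209 with detection required on all arrays. With array weights 2 member probes and genes, 1 other pathway gene and 1295 probes passed, and Fzd4 was -0.13, Notch2 -0.25, Smad2 -0.04 and Tgfbr3 -0.08. With trend and robust variance 1 member and 215 probes passed. With all arrays kept, Bmpr1a was -0.02 as the mean of its 2 probes, instead of 0.05 on the first.

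Without control replicates 1 and 3, 0 probes passed, the member median was 0.09, and Acvrl1 was 0.10, Bmp2 0.32 and 0.30, Bmp6 0.52, Smad1 A_44_P419162 0.04, Smad6 0.40, Tgfb1 0.21, Tgfbr1 A_44_P640828 0.11, Tgfbr2 0.09 and Sfrp5 0.42. Without CCH replicates 2 and 4, 0 probes passed, Smad6 was 0.13, Tgfb3 0.05 and Sfrp4 -0.09. Leaving out 1 array gave 0 to 1 member probes and genes, 0 to 708 probes in all, a member median of -0.14 to 0.02, and ranges of -0.03 to 0.15 (Bmpr1a A_44_P357470), -0.47 to 0.06 (Bmp2 A_43_P11848), -0.62 to 0.08 (Bmp6), -0.13 to 0.45 (Fzd4), -0.30 to 0.26 (Notch2), -0.14 to 0.02 (Smad1 A_44_P419162), -0.10 to 0.26 (Smad2), -0.24 to 0.16 (Smad6), -0.16 to 0.07 (Tgfb1), -0.08 to 0.05 (Tgfb3), -0.08 to 0.18 (Tgfbr3), -0.78 to 1.68 (Wnt6) and -1.08 to 0.30 (Sfrp5). The causes were not tested.

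With the replicate block, 0 member probes and 0 probes in all passed; same-numbered arrays deviated together at correlations of 0.145, 0.0794, -0.00599 and 0.245, and 0 of 4 numbers matched their own best. Slide or scan as a block was not run, because each slide holds 1 diet. Dim probes limit the precision: Wnt10b, Wnt6 and Sfrp5 were tested although not well above background on every array.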
